A study of Homo sapiens with 12 samples.

Results

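The genes described here carry peptides to the cell surface on MHC class I molecules. They comprise 9 genes of the 26535 features in the count and FPKM tables, taken by gene name: the heavy chains HLA-B, HLA-C, HLA-E and HLA-F, the light chain B2M, the peptide transporter subunits TAP1 and TAP2, the loading factor TAPBP and the transcriptional regulator NLRC5. Messenger RNA was sequenced in bulk from 2 established lines of human lung carcinoma of the non-small cell type, A549 and H1299, each carrying lentivirus with either an empty vector or VGF, which encodes a secreted neuropeptide precursor. The 4 groups held 3 libraries each: A549 with empty vector, A549 with VGF, H1299 with empty vector and H1299 with VGF. All cells received a lentivirus, the series' design text calls the replicates independent, and each library's title set its group. A549 was grown in DMEM/F12 and H1299 in RPMI-1640, so a difference between the lines is a difference of line and medium together. A free-text treatment note speaks of the empty vector in every sample and was not used to group libraries.

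MHC class I molecules show fragments of a cell's own proteins to cytotoxic T cells. The proteasome cuts proteins, TAP1 and TAP2 pump the fragments into the endoplasmic reticulum, and TAPBP (tapasin) holds the empty heavy chain and B2M pair beside the transporter until a peptide binds. Interferon raises most of these genes through factors such as IRF1 and NLRC5, and tumour cells are known to lower class I display by losing B2M or the loading genes or by silencing the pathway.

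HLA-B, HLA-C, HLA-E, HLA-F, TAP1, TAP2 and TAPBP lie on chromosome 6, in or beside the major histocompatibility complex, while B2M lies on chromosome 15 and NLRC5 on chromosome 16 (GRCh38, GENCODE 29). HLA-C spans chr6:31268749-31272130 on the minus strand and HLA-E chr6:30489467-30494205 on the plus strand. The HLA-B gene model runs over chr6:31269491-31357188 on the minus strand and overlaps most of HLA-C, with which it shares 1.15% of its exonic bases. B2M spans chr15:44711487-44718877 and NLRC5 chr16:56989485-57083531, both on the plus strand. TAP1 (chr6:32845209-32853978) and TAP2 (chr6:32821833-32838780) both lie on the minus strand, with the immunoproteasome gene PSMB8 between them. HLA-F spans chr6:29722775-29738528 on the plus strand and TAPBP chr6:33299694-33314387 on the minus strand. All 9 are annotated as protein coding.

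The upstream sequences of HLA-B, HLA-C and B2M are shown because these genes differed in direction between the lines although the same group of regulators is known to act on them. Each is the stretch from 200 to 41 bases before the RefSeq start (GRCh38.p14), written along the gene's strand, at chr6:31357220-31357379 for HLA-B, chr6:31272133-31272292 for HLA-C and chr15:44711317-44711476 for B2M. Capitals mark every match, on either strand, to GAANNGAAA, the Y box core ATTGG, the X2 box core TGACG and the kappa B motif. GAANNGAAA is a pattern that resembles the interferon response core but does not cover all its forms.
HLA-B: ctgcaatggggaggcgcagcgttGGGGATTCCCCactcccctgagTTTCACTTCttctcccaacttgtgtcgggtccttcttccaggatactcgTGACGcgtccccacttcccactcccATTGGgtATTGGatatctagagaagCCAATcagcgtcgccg
HLA-C: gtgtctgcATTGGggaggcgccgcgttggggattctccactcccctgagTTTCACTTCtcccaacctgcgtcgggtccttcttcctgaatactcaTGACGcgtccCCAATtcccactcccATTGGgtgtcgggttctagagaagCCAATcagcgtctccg
B2M: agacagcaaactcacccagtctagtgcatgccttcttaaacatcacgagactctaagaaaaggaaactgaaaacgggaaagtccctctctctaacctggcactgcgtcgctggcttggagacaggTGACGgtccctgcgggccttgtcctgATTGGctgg
The RefSeq promoter table matched 7 of the 9 members with windows of 300 bases, and HLA-E and NLRC5 had no entry. Over 35116 such windows of all genes, GAANNGAAA was found in 7.66%, ATTGG in 34.6%, TGACG in 24.6% and the kappa B motif in 0.424%. GAANNGAAA matched in HLA-B, HLA-C and TAP2, and TGACG in B2M, HLA-B, HLA-C and TAP2. GAANNGAAA fixes the free bases between its blocks at 2, and forms with other spacing were not searched. Genes without a match, such as B2M, HLA-F and TAP1, may therefore still hold an interferon response element. The matches thus do not set B2M apart from HLA-B and HLA-C in this respect. ATTGG matched in B2M, HLA-B, HLA-C, HLA-F and TAP1. The kappa B motif matched in HLA-B alone among the 7, where the matches on the 2 strands overlap each other. These matches describe letters in the reference, not bound sites or the lines' own alleles.

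Total counts ran from 31378171 to 41919484 per library. VGF averaged 2.43 ± 0.373 CPM (counts scaled by library size, SD, n = 3) in A549 with empty vector and 1280 ± 80.1 CPM with VGF, and 85.6 ± 7.26 and 980 ± 119 CPM in H1299. KRT8 and KRT18, keratins of simple epithelium, reached at least 441 and 571 CPM in every library, while CDH1, the epithelial cadherin, had 79.2 to 94.7 CPM in A549 and 0 counts in H1299, and EPCAM reached at most 0.978 CPM. CDKN2A, which A549 is known to lack, had at most 51 counts per A549 library and 5158 to 7075 per H1299 library. The 51 counts fell in A549 with VGF replicate 2, and the other A549 libraries had 0 to 11. In 1 library, A549 with VGF replicate 2, the summed level of 10 endothelial markers was 358 CPM with all 10 detected, against 31.4 to 43.7 CPM in the other A549 libraries and 3.05 to 4.03 CPM in H1299. Members' results for A549 with VGF are given without this library where it turned a direction or moved the log2 fold change by over 1.5 times. PTPRC, the common leukocyte marker, had 0 to 8 counts. In bulk RNA, fewer cells that express a gene and less RNA per cell cannot be told apart.

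All 9 members were detected in every library, and their levels per transcript length spanned a wide range. In A549 with empty vector, B2M led at 374 ± 16.1 FPKM (fragments scaled by transcript length and library size, SD, n = 3). HLA-C followed at 50.5 ± 1.16 FPKM, then HLA-E at 44.3 ± 1.33 and TAPBP at 41.9 ± 1.6. TAP1 stood at 16.5 ± 0.995 FPKM, HLA-B at 15.6 ± 2.54, TAP2 at 8.36 ± 0.822, HLA-F at 6.59 ± 0.984 and NLRC5 at 1.95 ± 0.0785. Libraries of neighbours in this order did not overlap, except HLA-E with TAPBP and TAP1 with HLA-B.

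H1299 had another order. With empty vector, B2M again led at 253 ± 15.2 FPKM, but HLA-B came next at 52.9 ± 0.667, ahead of HLA-E at 41.8 ± 2.00 and HLA-C at 34.8 ± 2.06. TAPBP followed at 17.6 ± 0.463 FPKM, TAP2 at 14.5 ± 1.13 and TAP1 at 9.14 ± 0.407. HLA-F at 0.886 ± 0.146 FPKM and NLRC5 at 0.463 ± 0.0653 were lowest, and in this group no neighbours overlapped. VGF left the order of means the same in each line, and in A549 with VGF the libraries of HLA-C and HLA-E also overlapped while those of TAP1 and HLA-B no longer did.

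**Figure D1:**
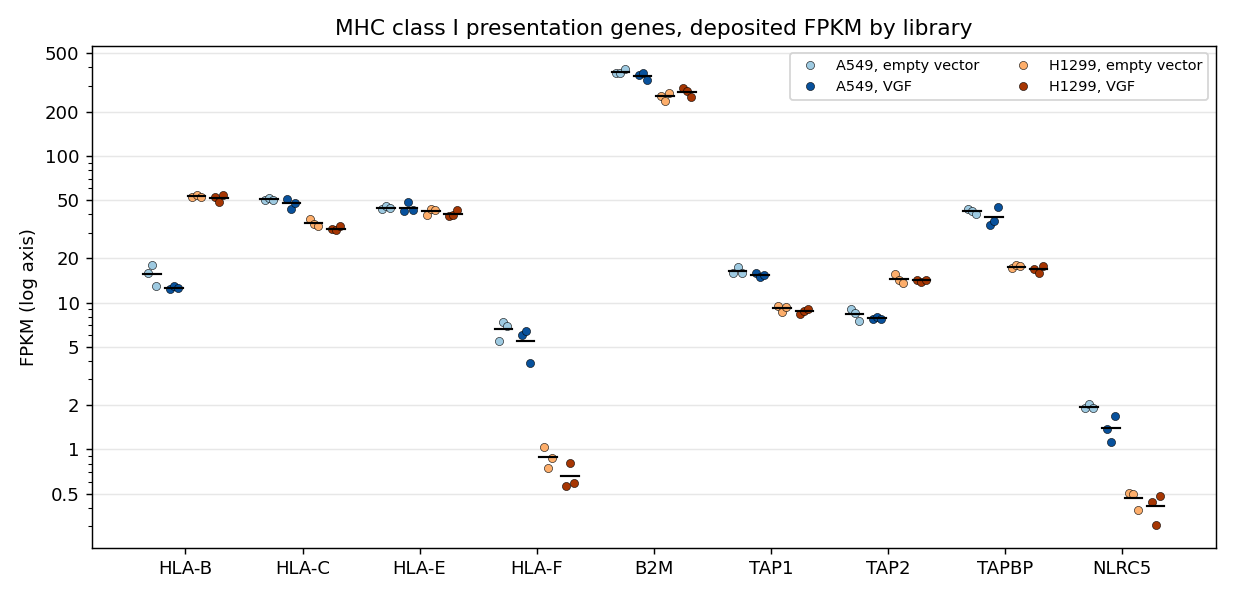
Deposited FPKM of the 9 genes on a log axis, with 1 point per library and a line at the mean of each group of 3. HLA-B and TAP2 sit higher in H1299, the other genes lie at the same level or lower there, and points with VGF lie near those with empty vector.

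The effect of VGF was asked within each line. None of the 9 members passed the test in A549 or in H1299 (edgeR's quasi-likelihood test, Benjamini-Hochberg adjusted p under 0.05 over 18228 features). Over all features 0.79% passed in A549 and 0.011% in H1299, so few members could be called at these rates. In A549, 8 of 9 fold changes were negative, with a median log2 fold change of -0.0858 against 0 for all features. In H1299, 8 of 9 were also negative, with a median of -0.0463 against -0.00555. At an unadjusted p under 0.05 there were 2 members in A549, HLA-B and NLRC5, against 13.9% of all features, and 0 in H1299, against 7.8%. DESeq2 called none of the members in either line.

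Among the heavy chains, HLA-B, a classical molecule that presents peptides to T cells, read 28.1, 30.8 and 22.6 CPM in the 3 A549 libraries with empty vector and 21.2, 22.9 and 22.5 CPM with VGF. The third library with empty vector lay among those with VGF, so the groups overlapped. The log2 fold change was -0.29 (SE 0.092), a fold of 0.817 with a 95% interval of 0.711 to 0.938, and the adjusted p was 0.173. Without that library the log2 fold change was -0.41 and the adjusted p 0.0308, and that was the only one of 12 single-library omissions, and of 8 other settings, in which a member was called in A549. Without the control that read 30.8 CPM the estimate moved the other way, to -0.19 (adjusted p = 0.429). In H1299, HLA-B read 79.8, 82.6 and 79.9 CPM with empty vector and 79.2, 74.2 and 83.2 with VGF, overlapping groups with a log2 fold change of -0.03 and an interval of 0.859 to 1.11 in fold.

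HLA-C, the other classical chain here and a ligand of inhibitory receptors on natural killer cells, read 87.7, 91.6 and 87.4 CPM in A549 with empty vector and 88.9, 77.5 and 84.9 with VGF. Its H1299 libraries read 56.6, 52.6 and 50.3 CPM and then 47.9, 47.7 and 51.4. The groups overlapped in both lines, and the 95% intervals of the fold were 0.859 to 1.03 in A549 and 0.839 to 1.01 in H1299. HLA-E, which shows leader peptides of other class I chains to natural killer cells, read 127, 135 and 130 CPM in A549 with empty vector and 125, 144 and 127 with VGF. Its highest value was in the library with the endothelial markers, and without that library its log2 fold change went from 0.02 to -0.05 (adjusted p = 0.879), with neither value called. That library also held the lowest HLA-C and NLRC5 of the 6 A549 libraries, and without it the HLA-C log2 fold change went from -0.086 to -0.033 (adjusted p = 0.963). The part of the endothelial transcripts in these values was not tested. In H1299, HLA-E read 101, 112 and 109 CPM with empty vector and 98.9, 101 and 112 with VGF.

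HLA-F, a non-classical chain that is mostly kept inside the cell, was the least precise of the heavy chains. It read 8.94, 13.1 and 8.96 CPM in A549 with empty vector and 8.41, 8.44 and 6.53 with VGF, so every library with VGF lay below every control, though the deposited FPKM overlapped. Its log2 fold change was -0.41 (SE 0.241, adjusted p = 0.498), with an interval of 0.525 to 1.08 in fold. Without the control that read 13.1 CPM the log2 fold change was -0.2 (adjusted p = 0.876). In H1299 it rested on 32 to 72 counts per library, and the interval of 0.496 to 1.10 was the widest of any member there.

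B2M, the light chain that every class I molecule needs to reach the surface, was measured most precisely, from at least 10385 counts per library. It read 402, 408 and 424 CPM in A549 with empty vector and 382, 406 and 377 with VGF, and 243, 247 and 255 CPM in H1299 with empty vector and 276, 261 and 245 with VGF. Both pairs of groups overlapped. The interval of the fold was 0.878 to 1.02 in A549 and 0.976 to 1.13 in H1299. The VGF effect was 0.15 higher in H1299 on the log2 scale (unadjusted p = 0.0451, adjusted p = 0.438), which was the lowest p among the members for that difference. The difference of the effects passed for 0 of 9 members and for 0.159% of all features.

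The loading genes lay within narrow bounds. TAP1 read 53.9, 59.4 and 52.8 CPM in A549 with empty vector and 53.7, 50.9 and 52.2 with VGF, and the interval of its fold was 0.860 to 1.04. TAP2 read 58.7, 54.7 and 48.0 CPM and then 49.8, 51.7 and 51.0, with an interval of 0.845 to 1.06. TAPBP read 167, 166 and 158 CPM and then 143, 145 and 165, with an interval of 0.843 to 1.01. All 3 pairs of groups overlapped. In H1299 the intervals were 0.868 to 1.05 for TAP1, 0.881 to 1.10 for TAP2 and 0.884 to 1.06 for TAPBP.

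NLRC5, a NOD-like receptor protein that binds class I promoters together with the RFX, CREB and NF-Y factors, had the largest estimate among the members in A549. It read 12.6, 13.0 and 12.7 CPM with empty vector and 9.33, 7.59 and 10.7 with VGF, and every library with VGF lay below every control. The log2 fold change was -0.47 (SE 0.205), the interval 0.531 to 0.982 in fold and the adjusted p 0.334. Without the library with the endothelial markers it was -0.35 (adjusted p = 0.624). In H1299 NLRC5 read 3.28, 3.11 and 2.14 CPM with empty vector and 2.76, 1.86 and 2.78 with VGF, overlapping groups with an interval of 0.628 to 1.2. Members with every VGF library below every control numbered 2 of 9 in A549, against 9.08% of all features, and 0 of 9 in H1299, against 7.07%.

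**Figure D2:**
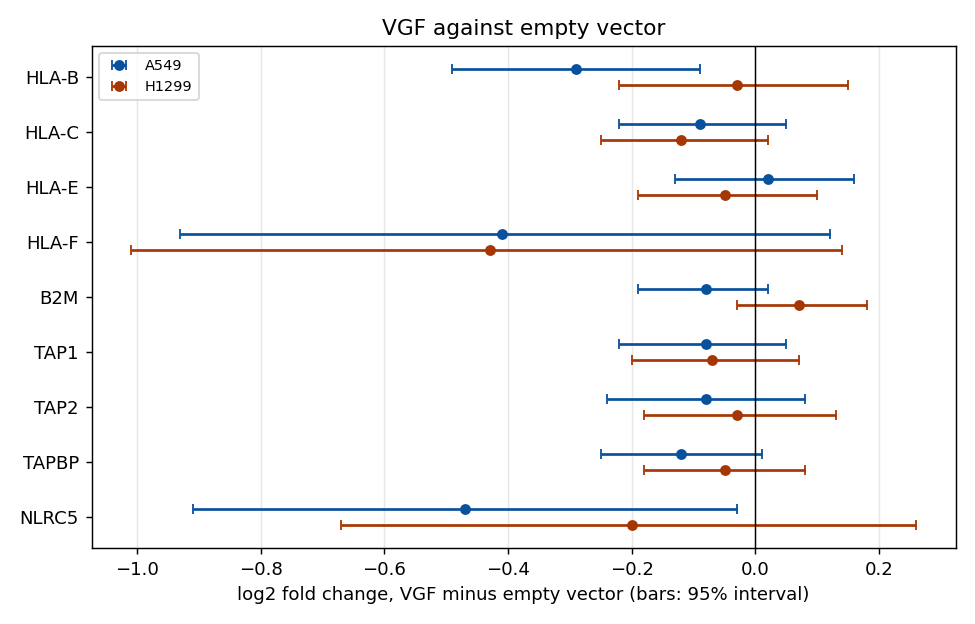
Log2 fold change of each gene, VGF minus empty vector, in A549 (blue) and H1299 (brown), with 95% intervals from the fit over all 12 libraries. The A549 intervals of HLA-B and NLRC5 lie below 0 before adjustment over all features, and every other interval includes 0.

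The machinery around the members was read from lists of related genes. In both lines VGF changed 0 of 9 further loading and trimming genes, 0 of 5 immunoproteasome genes, 0 of 14 constitutive proteasome core genes and 0 of 13 transcription factors of class I promoters by the same test. It also changed 0 of 8 tested class I-like molecules and NKG2D ligands, 0 of 11 interferon receptor and signalling genes, 0 of 8 repressors or turnover factors and 0 of 4 MHC class II genes. At an unadjusted p under 0.05 the counts in A549, in the same order, were 2, 0, 0, 2, 1, 1, 0 and 0. In H1299 they were 1, 0, 4, 0, 1, 0, 1 and 0. The shares of all features under the same limit, 13.9% in A549 and 7.8% in H1299, stand beside these counts. The 4 proteasome core genes were part of 13 of 14 with positive estimates in H1299, with a median log2 fold change of 0.101. Of the 5 immunoproteasome estimates 4 were negative in A549, with a median of -0.17, and 3 in H1299, with a median of -0.0168. Every A549 library with VGF lay below every control for PSMB8, without a call (log2 -0.19, adjusted p = 0.476). Over all features 9.08% lay this way in A549.

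IRF1, a transcription factor that carries the interferon signal to class I promoters, was under an unadjusted p of 0.05 in A549 and is named after its values were seen. It read 55.8, 55.8 and 55.0 CPM in A549 with empty vector and 45.3, 42.7 and 43.8 with VGF, so every library with VGF lay below every control. The log2 fold change was -0.34 (SE 0.0845, adjusted p = 0.0914). IRF1 passed in 3 of 8 other settings, DESeq2 and limma voom among them, and in 1 of 12 omissions of a single library, that of H1299 with VGF replicate 3. DESeq2 and limma voom called no gene of the other 7 lists, nor of the members, in either line. In H1299 IRF1 read 8.14 ± 0.596 and 7.66 ± 1.11 CPM (SD, n = 3) with empty vector and VGF. The difference of the effects did not pass (adjusted p = 0.483).

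The lines differed far more than the vectors. Between the empty vector groups all 9 members passed, 2 higher and 7 lower in H1299, and the same held between the VGF groups. With 77.2% of all features called between the empty vector groups and 77.3% between the VGF groups, a call of this kind is common and the sizes carry the description. The median log2 fold change of the members was -0.741, against 0.00608 for all features, and -0.774 against -0.0101 with VGF. In CPM no member's libraries overlapped between the lines.

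HLA-B was the heavy chain that was higher in H1299, at 80.8 ± 1.62 against 27.2 ± 4.14 CPM (SD, n = 3), a 2.97-fold rise with an interval of 2.60 to 3.40 and an adjusted p of 3.18e-09. With VGF in both lines the rise was 3.55-fold. The other heavy chains were lower in H1299: HLA-C was 1.67-fold lower (adjusted p = 1.54e-07) and HLA-F was 7.78-fold lower (adjusted p = 2.89e-07). HLA-E was 1.22-fold lower in CPM (adjusted p = 0.00186). On the deposited FPKM the HLA-E call was lost, with a log2 fold change of -0.08 and an adjusted p of 0.252 with empty vector, and -0.13 and 0.0659 with VGF, at a pseudocount of 1. FPKM carries no correction for library composition, and on that scale the median of all features between the lines shifted to 0.12 with empty vector and 0.107 with VGF.

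B2M was 1.66-fold lower in H1299 with empty vector (log2 -0.73, adjusted p = 1.72e-08) and 1.49-fold lower with VGF. The transporter subunits went opposite ways. TAP1 fell from 55.3 ± 3.53 to 26.7 ± 1.01 CPM (SD, n = 3), 2.07-fold lower, while TAP2 rose from 53.8 ± 5.39 to 81.0 ± 6.65 CPM, 1.5-fold higher (adjusted p = 8.03e-06). TAPBP was 2.70-fold lower (adjusted p = 1.69e-10), and NLRC5 was 4.48-fold lower (adjusted p = 8.59e-07) from 88 to 147 counts per H1299 library with empty vector.

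**Figure D3:**
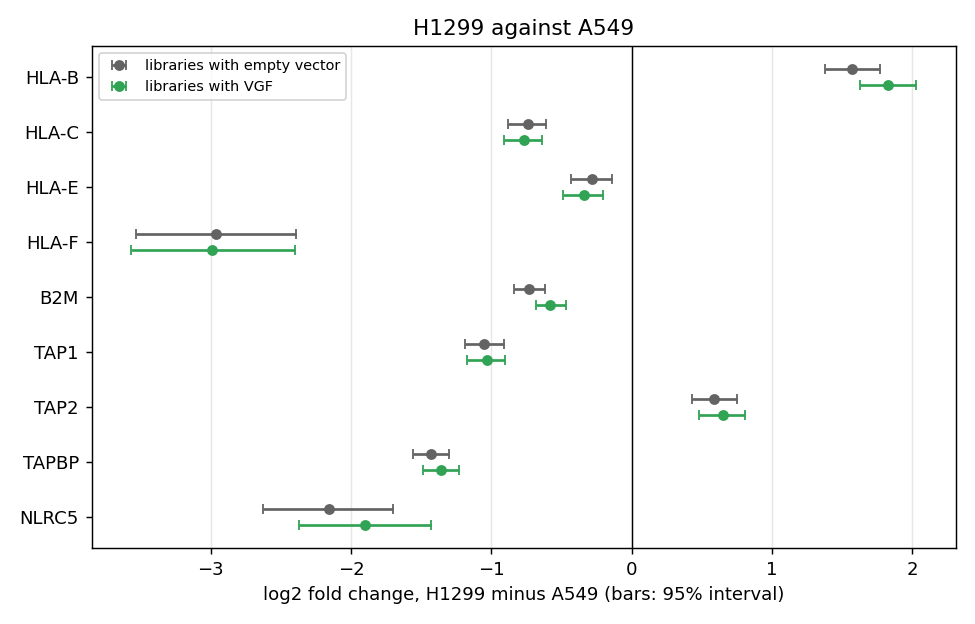
Log2 fold change of each gene, H1299 minus A549, among libraries with empty vector (grey) and with VGF (green), with 95% intervals. HLA-B and TAP2 lie right of 0, the other 7 genes left of it, and the estimates with and without VGF lie close together.

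Ratios taken within a library do not depend on its depth or composition scaling. The ratio of HLA-B to HLA-C in FPKM was 0.309 ± 0.0450 in A549 and 1.52 ± 0.0975 in H1299 with empty vector (SD, n = 3). With VGF the ratios were 0.268 ± 0.0259 and 1.61 ± 0.0508. HLA-B thus made up 13.3% ± 1.72 of the summed FPKM of the 4 heavy chain members in A549 and 40.6% ± 0.253 in H1299 with empty vector. The ratio of TAP2 to TAP1 was 0.509 ± 0.0513 in A549 and 1.58 ± 0.114 in H1299. For B2M against the 4 heavy chain members it was 3.20 ± 0.244 and 1.94 ± 0.135. None of these ratios overlapped between the lines, and each gave an exact permutation p of 0.1 (two-sided), the smallest that 3 against 3 allows, or 0.215 after Benjamini-Hochberg adjustment over 28 such tests. All 3 ratios overlapped between VGF and empty vector within each line.

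The sum of the 4 heavy chain members depended on the scale. In FPKM it was 117 ± 5.15 in A549 and 130 ± 1.30 in H1299 with empty vector, without overlap (exact permutation p = 0.1). In CPM scaled for composition it was 257 ± 12 and 243 ± 5.08, with overlap (exact permutation p = 0.2). Heavy chain genes other than these 4 were left out of the sums, so the sums are not totals of class I heavy chain RNA.

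**Figure D4:**
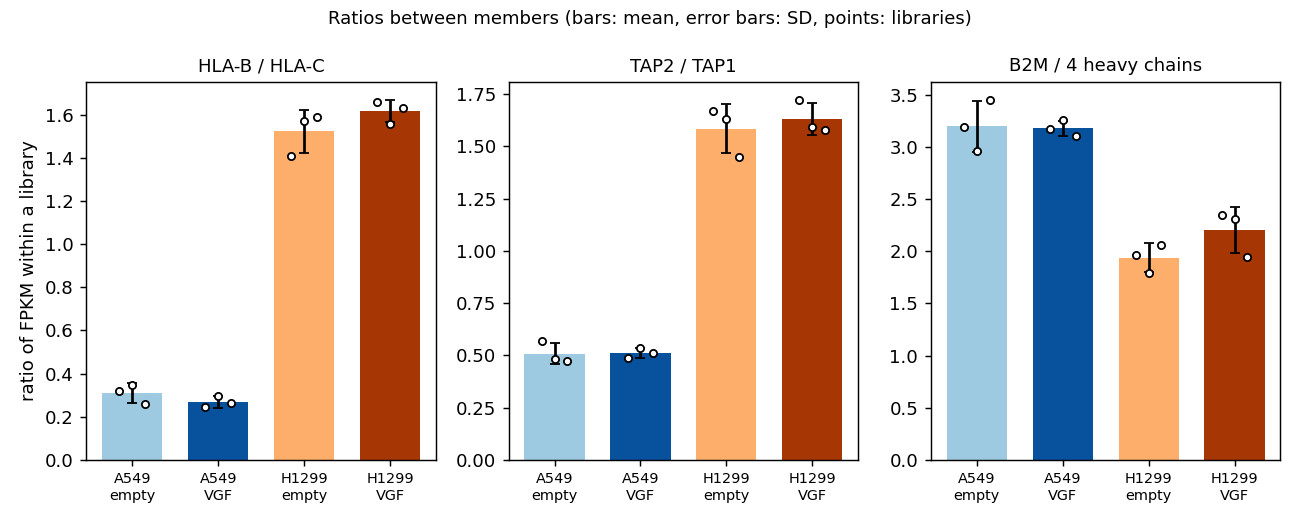
Ratios of FPKM within each library for HLA-B to HLA-C, TAP2 to TAP1 and B2M to the sum of the 4 heavy chain members. Bars are means of 3 libraries, error bars SD and points libraries, and the lines separate in each panel while VGF and empty vector overlap within a line.

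Counts of closely related or overlapping genes carry an added uncertainty. How the authors assigned reads that fit several genes, and whether they used strand, is not given in the sources used here. Of the 50-base words in GENCODE 29 transcripts, 2.72% of those of HLA-B, 5.38% of HLA-C, 4.34% of HLA-E and 31.3% of TAP2 also occur in other genes, and for B2M and NLRC5 the share was 0. TAP2 shares 32.3% of its exonic bases with a gene on the same strand, AL669918.1. Of the exonic bases of HLA-F, 28.5% are overlapped by genes on the opposite strand, and of HLA-B 17.8%. HLA-B and HLA-C differ widely between people, and how reads of each line's own alleles were matched to the reference was not tested.

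Transcripts of the immunoproteasome also differed between the lines. The immunoproteasome, the interferon-induced form of the proteasome that favours class I peptides, was lower in H1299 for 5 of 5 genes with empty vector, where 77.2% of all features were called, with a median log2 fold change of -1.46. PSMB9 fell from 16.6 ± 3.65 to 3.82 ± 0.444 CPM (SD, n = 3), 4.34-fold lower, and PSMB10 was 2.94-fold lower. PSMB8 was 1.55-fold lower (adjusted p = 0.000127). The activator subunits PSME1 and PSME2 were 2.75-fold and 1.60-fold lower. With VGF all 5 were again lower, with a median of -1.48. The uncertainty of read assignment also holds here. PSMB10 shares 34.8% of its exonic bases with a gene on the same strand, AC040162.1, and 27.5% of its 50-base words. Of the exonic bases of PSMB8, 20.6% are overlapped by genes on the opposite strand.

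**Figure D5:**
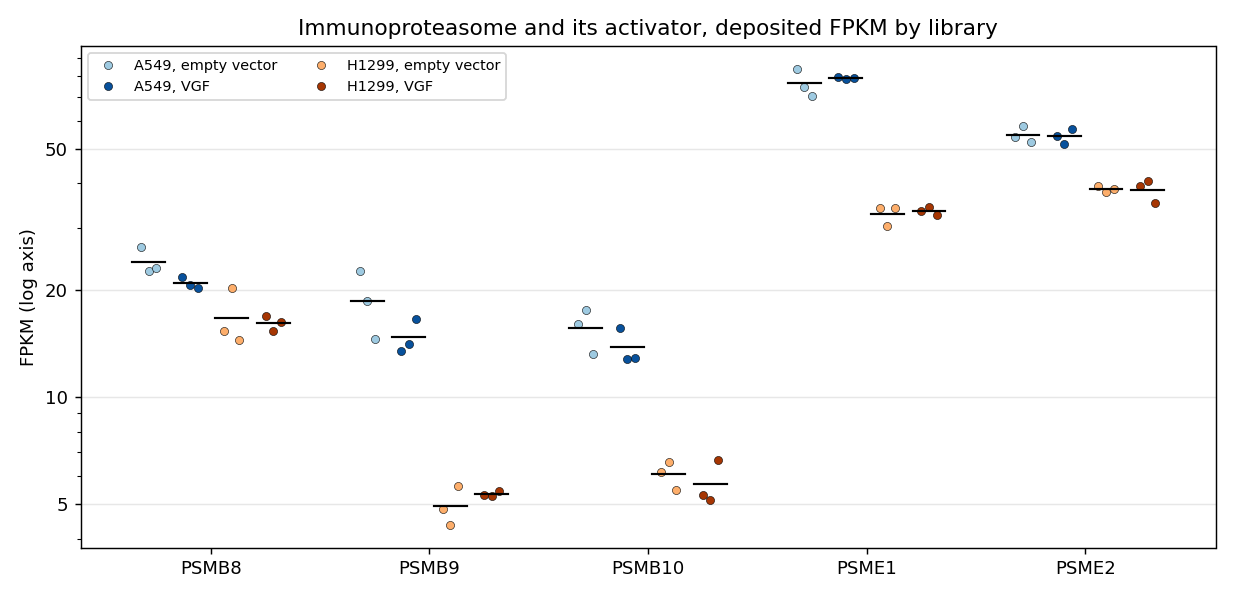
Deposited FPKM of the immunoproteasome subunits PSMB8, PSMB9 and PSMB10 and the activator subunits PSME1 and PSME2 on a log axis, with 1 point per library and a line at each mean of 3. The H1299 points lie below the A549 points for PSMB9, PSMB10, PSME1 and PSME2, and for PSMB8 the highest H1299 and the lowest A549 point meet at 20.3 FPKM. In A549 every PSMB8 point with VGF lies below every control, and elsewhere the vectors overlap within each line.

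The constitutive proteasome core, which cuts proteins in all cells, was mixed. In H1299 with empty vector 5 of 14 genes were higher and 8 lower, with a median of -0.354. Over all features 77.2% were called between these groups, 7024 higher and 7043 lower in H1299. PSMB1 was higher by 1.48 on the log2 scale and PSMB7 by 0.60, while PSMA6 fell by 0.87 and PSMB5 by 0.82. The ratio of PSMB8 counts to those of PSMB5, the subunit it replaces, was 0.183 ± 0.00944 in A549 and 0.208 ± 0.0300 in H1299 with empty vector (SD, n = 3), and these overlapped. With VGF it was 0.164 ± 0.00333 and 0.191 ± 0.00564, higher in H1299 without overlap, and in A549 it was lower with VGF than with empty vector, also without overlap. Both gave an exact permutation p of 0.1 (two-sided), or 0.215 after Benjamini-Hochberg adjustment over the 28 ratio tests. Of the 9 further loading and trimming genes 2 were higher and 6 lower. TAPBPL, a second peptide editor, fell by 2.34 on the log2 scale and CANX, the chaperone of newly made heavy chains, by 0.70. CALR and ERAP1, the trimming peptidase, were higher by 0.12 and 0.19, but the CALR call was lost in 3 omissions of a single library.

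Of the 13 transcription factors, 7 were higher and 5 lower in H1299 with empty vector, where 77.2% of all features were called. IRF1 fell from 55.5 ± 0.437 to 8.14 ± 0.596 CPM (SD, n = 3), 6.82-fold lower. IRF2, a partner and competitor of IRF1, was 1.67-fold lower. RFXANK and RFXAP, subunits of the RFX complex at the X box, were higher by 1.39 and 1.17 on the log2 scale, and NFYC, a subunit at the Y box, by 0.89. Of 11 interferon receptor and signalling genes 4 were higher and 6 lower. IRF9, a part of the complex that acts downstream of type I interferon, was 7.04-fold lower. Its libraries spread widely, at 16.9 ± 7.38 CPM in A549 and 2.4 ± 1.32 in H1299. The 95% interval of its fold was 0.0576 to 0.351. SOCS3, a feedback inhibitor of cytokine receptors, was 5.64-fold lower and the receptor subunit IFNAR2 was 2.10-fold lower. The kinase TYK2, the phosphatase PTPN2 and the receptor subunit IFNGR2 were higher by 0.99, 0.86 and 0.77.

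Among 8 tested class I-like molecules and NKG2D ligands, 3 were higher and 4 lower in H1299 with empty vector. This and the counts below stand beside 77.2% of all features called. The ligands ULBP1, MICB and MICA, which mark stressed cells for natural killer cells, were higher by 2.69, 1.35 and 0.78 on the log2 scale. MR1, which presents vitamin B metabolites, was 10.2-fold lower, HFE, an iron regulator, was 1.97-fold lower and FCGRT, the neonatal Fc receptor chain, was 1.62-fold lower. Of 8 repressors or turnover factors 2 were higher and 4 lower. MARCHF4, a membrane ubiquitin ligase, was higher by 2.97 and EZH2, the catalytic subunit of Polycomb complex 2, by 0.65, while SUSD6, TMEM127 and SUZ12 fell by 1.45, 0.96 and 0.59. Of 12 MHC class II genes, which present to helper T cells, 4 had counts enough to be tested and 3 were lower in H1299, led by HLA-DMB at 17.8 CPM in A549 and 1.09 CPM in H1299. HLA-G had 0 counts in all 12 libraries, which allows up to 0.103 CPM at 3 counts in the shallowest of them.

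Within lines, the members varied together only loosely. After each line's mean was subtracted from log2 CPM, the 36 pairs of members had a median Pearson r of 0.345 over the 12 libraries, from -0.46 to 0.76, with 26 positive. The highest values were 0.76 for HLA-C with NLRC5 and 0.75 for HLA-C with TAP1, and the lowest was -0.46 for HLA-C with B2M. A549 with VGF replicate 2, which carried the endothelial markers, had the lowest HLA-C, NLRC5 and TAP1 of the A549 libraries. These read 77.5, 7.59 and 50.9 CPM there. The part of that library in these correlations was not tested. The vector and the library's composition are shared by all points of such a correlation. Among 11139 features, the 5 most like HLA-B were CCDC36 (r = 0.955), SNAP91, NME3, PPP1R16A and RGL2, and TAPBP, at 0.678, was the member closest to it. The 5 most like B2M were WDR35 (r = 0.921), GART, EIF3J, PHTF2 and AASDHPPT. Both lists hold the highest r values among 11139 features over 12 libraries, so picking alone favours high values. They are a description, and shared regulation was not tested.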

How the data were processed

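The deposited tables held read counts and FPKM per feature for 12 libraries. The authors' build (GRCh38) and use of DESeq2 stand in the submitters' processing notes, without version or role; for aligner, counter, annotation and strand setting, nothing is given in the sources used here. Per the labels' protocols, mRNA was captured on beads. Both tables held 26535 features, 19974 with an Ensembl ID; 18 stray lines that name no feature were left out and 27 symbols turned into dates were restored.

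From the deposited counts, edgeR 4.0.16 (R 4.3.3, limma 3.58.1) was run with TMM scaling, filterByExpr and quasi-likelihood tests on 4 group means over all 12 libraries, leaving 18228 features (14865 with an Ensembl ID), with Benjamini-Hochberg adjustment over all of them and a threshold of 0.05. CPM was computed with TMM factors of 0.919 to 0.94 in A549 and 1.06 to 1.09 in H1299. Intervals of 95% used the fit's 8 residual degrees of freedom plus a median of 4.44 prior ones, and standard errors were derived from the F values. The authors' FPKM gave levels compared between genes and, as log2 of FPKM + 1 or + 0.1, limma fits as alternatives. DESeq2 1.42.0, limma voom, upper-quartile scaling, no filter, each line fitted alone, a replicate block and omission of each library were the other settings. The edgeR steps were tested on simulated data first.

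Members and lists were chosen with earlier results of these data known. All members and immunoproteasome genes are named, and from each list up to 3 called genes per direction with the largest change and at least 5 CPM in 1 group. Some genes of the lists are counted but not reported by name here. No pair of libraries within a group agreed within sampling noise (chi-square per degree of freedom 7.94 to 22.3). Same-numbered libraries of the vectors within a line deviated with correlations of -0.0765 to 0.105, so the numbers were not used as pairs. Precision rests on these depths, and intervals of the tests include the spread between libraries.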

Additional observations from a re-analysis of the deposited data

How the results depend on the processing

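Of the 9 members, 0 were called for VGF in either line or for the difference between lines under every setting, except HLA-B in A549 without the third empty vector library, so the count of members called there ranged from 0 to 1. Between the lines 9 of 9 were called under every count-based setting and 8 under FPKM, which lost HLA-E. Counts over all features moved more. In A549, with 144 called, DESeq2 gave 736 and limma voom 334, and omissions of a library gave 52 to 130. In H1299, with 2 called, DESeq2 gave 139, no filter 5, limma voom 1, FPKM + 1 gave 4, the line fitted alone 4, and omissions 1 to 4. For the difference, with 29 called, DESeq2 gave 318, limma voom 19 and omissions 18 to 36. The cause was not tested.

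The replicate numbers share only a number. With a replicate block 63 features were called in A549, 1 in H1299, 21 for the difference, 13844 between the lines with empty vector and 13812 with VGF, and the members' calls were the same as without it.

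Directions near 0 turned, none of them called. Under FPKM + 1 the HLA-F difference between lines was 0.06 in place of -0.026 on the log2 scale. Omissions of a library gave -0.053 to 0.057 for HLA-E and -0.066 to 0.024 for PSME2 in A549. In H1299 they gave -0.075 to 0.007 for HLA-B, -0.079 to 0.039 for TAP2, -0.133 to 0.107 for PSMB8, -0.014 to 0.052 for PSME1 and -0.06 to 0.025 for PSME2. For the difference they gave -0.079 to 0.013 for HLA-C, -0.119 to 0.015 for HLA-E, -0.305 to 0.135 for HLA-F, -0.032 to 0.057 for TAP1, -0.011 to 0.131 for TAP2, -0.059 to 0.191 for PSMB10 and -0.033 to 0.055 for PSME2. In H1299, where the intervals of the VGF effect were widest for HLA-F and NLRC5, these had 32 to 72 and 74 to 147 counts per library; the part of depth in that width was not tested.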
